A study of Homo sapiens with 21 samples.

Results

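hTERT-HPNE cells, a nontransformed line of human pancreatic cells kept in culture by a telomerase transgene, were compared 8 h after oxidative stress and 8 h after DNA breakage. One group of 3 libraries came from cells harvested 8 h after 300 uM H2O2 was added with new medium, and the other group of 3 from cells harvested 8 h after 400 ng/ml NCS (neocarzinostatin, a drug that breaks both DNA strands). Neither group carried any other treatment or edited allele, and all cells grew in medium with reduced glucose and added EGF. The comparison took in all 19694 genes whose values varied, of 23368 listed, and 6 of the 21 libraries of the series. Untreated cells, harvested at 0 h, and the libraries at 4 h and 24 h after each stress, 3 a group, were used for reference. No untreated cells were harvested 8 h after a change of medium. Differences from untreated cells thus cannot tell the stress from the hours in new medium. The labels call the libraries biological replicates but do not say how the cultures were kept apart, so that p-values measure the spread between libraries only. That spread was pooled over all 21 libraries and not taken from the 6 compared. With the spread of those 6 alone, 4692 genes differed by the adjusted p in place of 6721. Because 1 cell line was used, nothing here speaks of other pancreatic cells.

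H2O2 oxidizes thiol groups, lipids and bases. The transcription factor NRF2, held in check by the thiol-rich protein KEAP1, escapes degradation in such cells and switches on genes for glutathione, thioredoxin, heme breakdown and NADPH supply. Several kinases that sense heme, misfolded protein or missing amino acids phosphorylate the initiation factor eIF2, which slows translation in general but favours the factor ATF4; this route is named the integrated stress response (ISR), and ATF4 switches on genes that make, import and charge amino acids. NCS reaches the nucleus and breaks the DNA directly, which activates p53, the factor behind cell cycle arrest and DNA repair genes. Both stresses lead to p53 activity, so the comparison at the same hour asks which transcripts differ between these treatments. No other dose of H2O2 or NCS was sequenced, so the kind of stress cannot be told from its severity. The paper calls 300 uM H2O2 lethal and reports more cell death with H2O2 than with NCS at the highest doses tried. Whether dying cells contribute to the differences below was not tested.

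The values are regularized log2 values, on which 1 unit is a doubling and differences of poorly expressed genes are shrunk towards 0. All differences below are H2O2 minus NCS on this scale unless another pair is named. Markers of the line were present, except KRT19, and 6 of the 8 differed between the stresses by the test: CD44 (0.17), KRT8 (0.22) and SOX9 (0.26) were higher in H2O2, and NES (-0.25), KRT18 (-0.19) and TERT (-0.15) were lower. SOX9 passed narrowly (adjusted p = 0.0452 by limma) and no longer passed in 6 of the alternatives given at the end. VIM, the mesenchymal filament gene, lay between 17.02 and 17.12 over the 6 libraries, and CD44 between 13.58 and 13.84. TERT lay between 13.86 and 14.08, and its reads can include those of the transgene. The ductal keratin KRT19 was near 0, from 0.58 to 0.63. Of 10 acinar and endocrine markers, 5 were at 0 in every library (PRSS1, CELA3A, PTF1A, INS and PDX1), and none of the other 5 passed the test. Of 8 blood and endothelial markers, CD3E and HBB were at 0 in every library, and none of the other 6 passed the test. Without H2O2 replicate 2, 1 of these 6 passed as higher. The sum of the latter list on the linear scale was 21.9 to 22.7 in H2O2 and 21.5 to 21.7 in NCS, and that of the acinar and endocrine list 13.6 to 15.4 and 14.5 to 15.7.

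One library stood apart before any gene was tested. Replicate 2 of H2O2 at 8 h lay at a Euclidean distance of 20.4 from the mean of the NCS libraries over all varying genes, while replicates 1 and 3 lay at 27.4 and 27.2. Its distance from untreated cells was also smaller, 23.9 against 33.5 and 33.7. The 3 NCS libraries were 9.9 to 10.7 from each other, and H2O2 replicates 1 and 3 were 11.4 apart, but replicate 2 was 14.7 and 15.1 from them. In most genes that differed, replicate 2 moved the same way as replicates 1 and 3 but less far. Over the 181 genes (0.919%) with an adjusted p under 0.05 and a difference over 0.58 in size, its distance from the NCS mean was at the median 0.73 of that of the other two, and it was the H2O2 library nearest to NCS in 157 of the 181. Its smaller departure from untreated cells was of a similar size, 0.74 at the median over 102 genes. The labels record nothing that sets this culture apart. Values are given with all 3 libraries, and list counts that change by more than 1.5 times are also given without it.

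**Figure D1:**
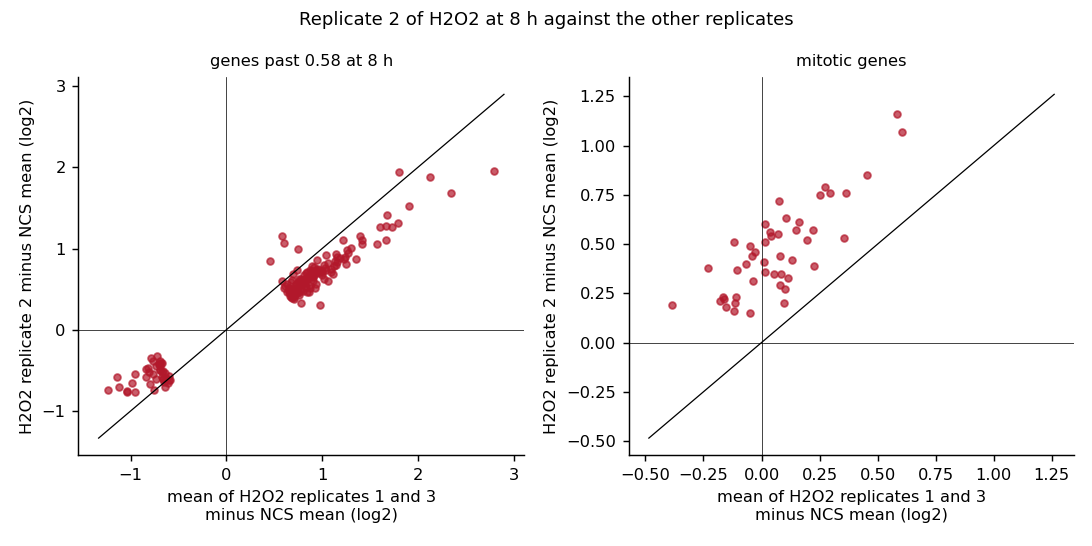
Each point is a gene; the x axis is the mean of H2O2 replicates 1 and 3 minus the NCS mean at 8 h and the y axis is H2O2 replicate 2 minus the NCS mean (both log2), with a line where both are equal. On the left, most of the 181 genes past 0.58 lie between that line and 0, and on the right all 47 mitotic genes lie above the line.

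At 8 h, 32 genes were past both limits of the study (adjusted p under 0.05 by limma, and more than 1 unit of log2 in either direction), which is 0.162% of the genes tested. Of these, 31 were higher in H2O2 (0.157%) and 1 was lower (0.00508%). In all 32 genes the 3 H2O2 libraries did not overlap with the 3 NCS libraries, as was the case for 40.8% of all genes. With the adjusted p alone, 6721 genes differed (34.1%), 3679 higher (18.7%) and 3042 lower (15.4%), most of them by little. With library medians aligned these were 7204 and 2701, so that the share of higher genes went from 54.7% to 72.7%. Without H2O2 replicate 2, 45 genes were past both limits, 40 higher and 5 lower, and all 32 were among them. The added genes were CARS, DBIL5P, JDP2, KCNE4, KIAA1683, LMO4, SESN2, SRXN1 and TSC22D3 on the higher side and IKZF2, LOC100505678, LRRN3 and TRPC6 on the lower, with differences between 0.89 and 0.98 in size in the comparison of all libraries.

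In 23 of the 31 higher genes, the NCS libraries differed from untreated cells by less than 0.2. The share of all genes within 0.2 was not counted. The 31 were chosen for higher values in H2O2 than in NCS, which favours values above untreated cells in H2O2. All 31 were above untreated cells in H2O2 (adjusted p under 0.05, limma), where 37.4% of all genes passed in either direction and 18.8% above. Of the 31, 27 were also past the limit of 1. By the adjusted p, 7 of the 31 were above untreated cells in NCS, beside 23.9% of all genes in either direction and 10.5% above. In NCS 0 of the 31 were above untreated cells past the limit of 1. The untreated libraries are shared by these 2 comparisons. Over all genes, 102 were past both limits in H2O2 against untreated cells (0.518%), 63 up and 39 down, and 67 in NCS (0.34%), 13 up (0.066%) and 54 down (0.274%).

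**Figure D2:**
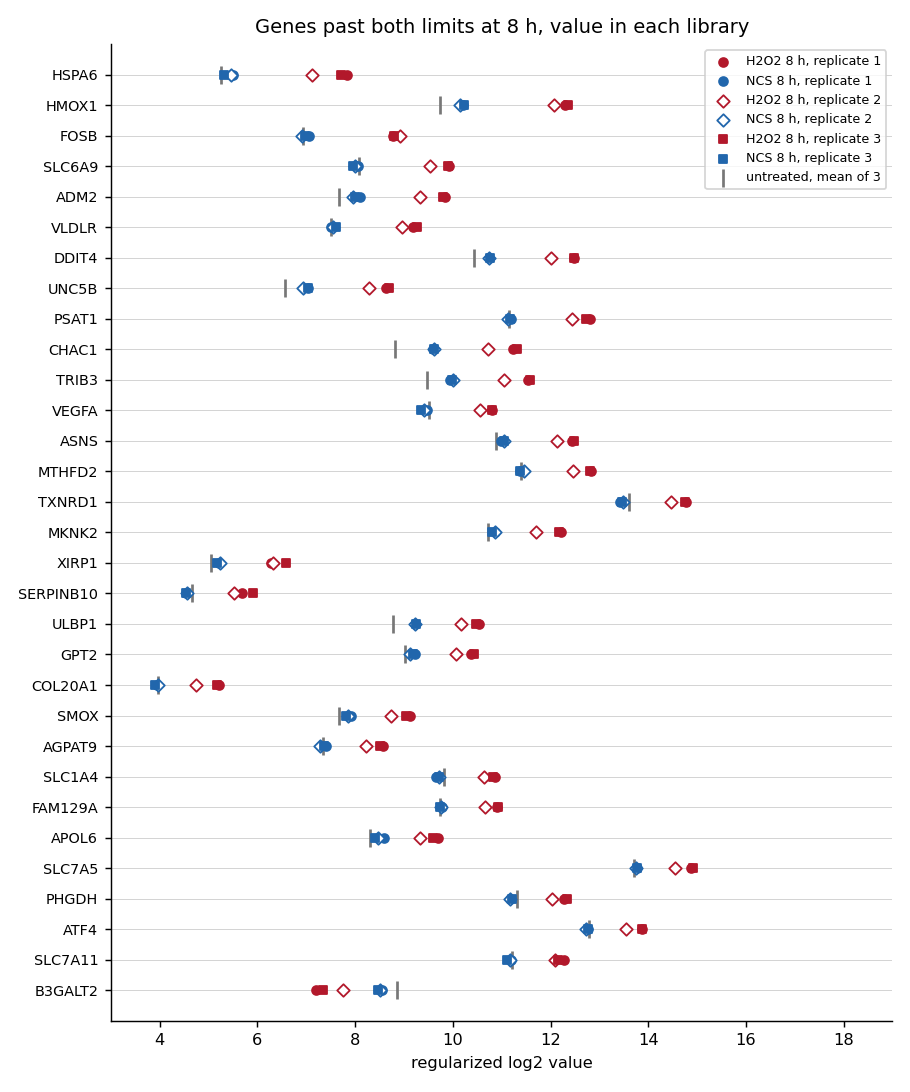
Of the 32 genes past both limits at 8 h, the 31 named in the text, in order of the difference, with the regularized log2 value on the x axis; red symbols are the 3 H2O2 libraries, blue symbols the 3 NCS libraries, open diamonds replicate 2 of each, and grey bars the mean of 3 untreated libraries. Red and blue do not overlap in any row, and in all but 2 of the higher genes the open red diamond is the red symbol nearest to blue.

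HSPA6, a strictly stress-inducible HSP70 chaperone, had 7.83, 7.11 and 7.71 against 5.49, 5.45 and 5.32, a difference of 2.13 ± 0.13 (SE, as for all differences; adjusted p = 1.71e-09 by limma), 4.37-fold on the linear scale. Untreated cells had a mean of 5.25, and replicate 2 was the lowest H2O2 library. Its near-identical neighbour HSPA7 can share reads with HSPA6. FOSB, an AP-1 subunit, had 8.78, 8.92 and 8.79 against 7.05, 6.92 and 6.97, a difference of 1.85 ± 0.11. FOSB and XIRP1 were the 2 of the 31 genes in which replicate 2 was not the H2O2 library nearest to NCS.

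HMOX1, the heme-degrading enzyme under NRF2 and BACH1 control, differed most surely. Its values were 12.29, 12.08 and 12.36 in H2O2 and 10.21, 10.14 and 10.23 in NCS, a difference of 2.05 ± 0.05 (adjusted p = 6.43e-14). The gene was also above untreated cells in NCS, by 0.45 beside 2.50 in H2O2.

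Transcripts of the ISR made up much of the list. Of the 31 higher genes, 13 belonged to the lists of ISR regulators or amino acid supply. Of 16 ISR regulators, 15 were higher in H2O2 and 0 lower, with a median difference of 0.84 beside 0.00 over all genes; the background was 18.7% higher. ATF4 itself, the factor that the pathway favours, had 13.87, 13.54 and 13.88 in H2O2 and 12.76, 12.72 and 12.76 in NCS, a difference of 1.01 ± 0.06 (adjusted p = 8.27e-10). In NCS it was within 0.04 of untreated cells. The feedback genes of the route moved with it. CHAC1, which breaks down glutathione, had 11.24, 10.72 and 11.31 against 9.59, 9.62 and 9.62, and TRIB3, a pseudokinase that restrains AKT and ATF4, had 11.53, 11.04 and 11.58 against 9.95, 10.00 and 9.98. Their differences were 1.48 ± 0.10 and 1.41 ± 0.09. Both were also above untreated cells in NCS, by 0.80 and 0.51. DDIT4, an inhibitor of mTORC1, differed by 1.57 and VLDLR, a lipoprotein receptor, by 1.59, and JDP2, a bZIP partner of AP-1, by 0.98. The one member that did not pass was ATF5, with a difference of 0.02.

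Amino acid supply followed. Of 21 genes for the synthesis and import of amino acids and one-carbon units, 20 were higher in H2O2 and 1 was lower, and the median was 0.88. Serine synthesis begins with PHGDH and goes on with PSAT1, and both were raised. PSAT1 had 12.81, 12.44 and 12.73 in H2O2 against 11.19, 11.13 and 11.17 in NCS, a difference of 1.49 ± 0.07. PHGDH differed by 1.03. ASNS, which makes asparagine, had 12.43, 12.13 and 12.47 against 10.98, 11.05 and 11.05, a difference of 1.31 ± 0.07, and MTHFD2, the mitochondrial folate enzyme, differed by 1.29. The glycine carrier SLC6A9 stood first among the transporters, with 9.92, 9.54 and 9.91 against 8.06, 8.00 and 7.96 (1.78 ± 0.08). SLC1A4, a carrier of neutral amino acids, differed by 1.08, SLC7A5, the large neutral amino acid carrier, by 1.03, and SLC7A11, the cystine carrier that feeds glutathione synthesis, by 1.00. In each of these genes NCS lay within 0.14 of untreated cells. The lower member was ALDH18A1, an enzyme of proline synthesis, with -0.16.

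The enzymes that load tRNA were split. Of 20 cytosolic aminoacyl-tRNA synthetases, 11 were higher (55%, beside 18.7% of all genes) and 5 lower (25%, beside 15.4%). CARS (0.93), GARS (0.73), MARS (0.55), YARS (0.53), SARS (0.49) and NARS (0.47) had the largest differences. In all of these but SARS, which was 0.20 above untreated cells, NCS was within 0.1 of untreated cells. Of the other genes past both limits, ADM2, a peptide hormone, differed by 1.64, ULBP1, a ligand of the natural killer receptor NKG2D, by 1.16, GPT2, the mitochondrial alanine transaminase, by 1.12, and FAM129A (NIBAN1) by 1.07. VEGFA, the angiogenic factor, had 10.81, 10.56 and 10.81 against 9.48, 9.41 and 9.34 (1.32 ± 0.06). The actin-binding gene XIRP1 (1.18), the serpin SERPINB10 (1.16), the spermine oxidase SMOX (1.10), the collagen COL20A1 (1.10), the acyltransferase AGPAT9 (1.09) and the apolipoprotein L gene APOL6 (1.04) were also past both limits, as were MKNK2 and UNC5B, described with the time course. XIRP1, SERPINB10 and COL20A1 had a mean under 6 in NCS.

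ATF4 and its C/EBP partners bind a composite element whose core can be written TGATGNAA, and NRF2 with small MAF proteins binds the antioxidant response element with the core TGACNNNGC. Promoter windows of 300 bases (250 before to 50 after each start; RefSeq, GRCh38.p14) were searched for these letters on both strands. The deposited values carry gene names only, so the windows were joined by symbol. TGATGNAA was found in the windows of 4.46% of 27305 genes, of 5 of 15 ISR regulators with a window, of 7 of 16 amino acid genes, of 5 of 12 synthetases and of 0 of 27 NRF2 genes, and in those of 3 of the 20 higher genes with a window (CHAC1, ASNS and SLC1A4). TGACNNNGC was found in 16.1% of all genes and in 9 of 27 NRF2 genes, 5 of 15 ISR regulators, 6 of 16 amino acid genes and 7 of the 20 higher genes. Genes with several starts have several windows and so more chances of a match, and a match shows the letters and not a binding site. The heat shock element, written here as GAANNTTC, was found in 8.21% of all genes, in 12 of 21 heat shock chaperones and in 4 of the 20 higher genes with a window. The 5 stretches of 90 bases below, all before the start, are shown because their genes are among the 31 and carry the letters; capitals mark the match, which in CHAC1 and at the second start of TXNRD1 is on the opposite strand. The stretches of ASNS (chr7:97872417-97872506, minus strand) and CHAC1 (chr15:40953232-40953321, plus strand) hold TGATGNAA. Those at the starts of TXNRD1 (chr12:104215650-104215739 and chr12:104286900-104286989, plus strand) hold TGACNNNGC, and that of HSPA6 (chr1:161524330-161524419, plus strand) holds GAANNTTC. Capitals mark only the letters named so far for each stretch. The HSPA6 stretch also holds TGACNNNGC, in lower case on the opposite strand. That of ASNS also holds GAANNTTC, which overlaps the capitals.
ASNS: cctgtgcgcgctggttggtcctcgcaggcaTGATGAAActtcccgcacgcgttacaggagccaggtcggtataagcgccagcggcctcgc
CHAC1: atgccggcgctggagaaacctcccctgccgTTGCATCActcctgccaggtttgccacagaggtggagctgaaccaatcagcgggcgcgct
TXNRD1 first start: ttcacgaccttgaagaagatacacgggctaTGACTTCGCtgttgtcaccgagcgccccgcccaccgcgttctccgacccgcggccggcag
TXNRD1 second start: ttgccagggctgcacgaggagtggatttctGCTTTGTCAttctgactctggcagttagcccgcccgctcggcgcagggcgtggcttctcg
HSPA6: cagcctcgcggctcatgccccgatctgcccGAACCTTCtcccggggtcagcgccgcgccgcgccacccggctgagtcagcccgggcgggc

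All NRF2 genes that passed the test were higher in H2O2. Of 36, 26 were higher and 0 lower, with a median of 0.26; without H2O2 replicate 2 the counts were 27 and 1. Besides HMOX1 and SLC7A11, TXNRD1 was past both limits. This selenoprotein, which keeps thioredoxin reduced, had 14.77, 14.47 and 14.75 in H2O2 and 13.43, 13.48 and 13.47 in NCS, a difference of 1.20 ± 0.05 (adjusted p = 6.13e-11), and NCS lay 0.14 below untreated cells. SRXN1, which repairs overoxidized peroxiredoxins, differed by 0.97. The exporter gene ABCC2, at a low level, differed by 0.87, and TRIM16L by 0.86, although reads of TRIM16L and TRIM16 may be split between the pair. Another list held enzymes that remove peroxide and superoxide, together with glutaredoxin and thioredoxin genes. Of its 23 members, 7 were higher (30.4%, beside 18.7% of all genes) and 3 lower (13%, beside 15.4%), or 8 and 2 without H2O2 replicate 2. Their differences did not go beyond 0.21 in size. GLRX2 (0.21), GLRX (0.20) and SOD2 (0.14) were higher, and TXN2 (-0.17) was lower.

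The listed heat shock chaperones passed in both directions, the lower ones at a share near that of all genes. Of 23 chaperones in the list, which did not hold HSPA6, 8 were higher (34.8%, beside 18.7% of all genes). Another 4 were lower (17.4%, beside 15.4%), and the median was -0.01. The higher count was 5 without H2O2 replicate 1, after quantile normalization, and in a fit of only these 6 libraries. HSPA1B (0.63) and HSPA1A (0.25), which are almost identical in sequence, and the co-chaperone BAG3 (0.20) were higher. HSPA4L (-0.60), HSPA8 (-0.23) and HSP90AA1 (-0.17) were lower; HSPA4L was 0.77 above untreated cells in NCS and 0.17 in H2O2. Of 11 metallothionein and zinc export genes, 3 were higher and 0 lower, and the zinc exporter SLC30A1, a target of the metal sensor MTF1, differed by 0.85. In the endoplasmic reticulum list 10 of 19 genes were higher and 1 lower (median 0.09). Its chaperone HSPA5 differed by 0.43, the factor XBP1 by 0.45 and HERPUD1, which takes part in the removal of misfolded proteins, by 0.56. These differences were smaller than those of most ISR regulators. In NCS the 3 genes were also above untreated cells, by 0.57, 0.26 and 0.21 in the same order.

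**Figure D3:**
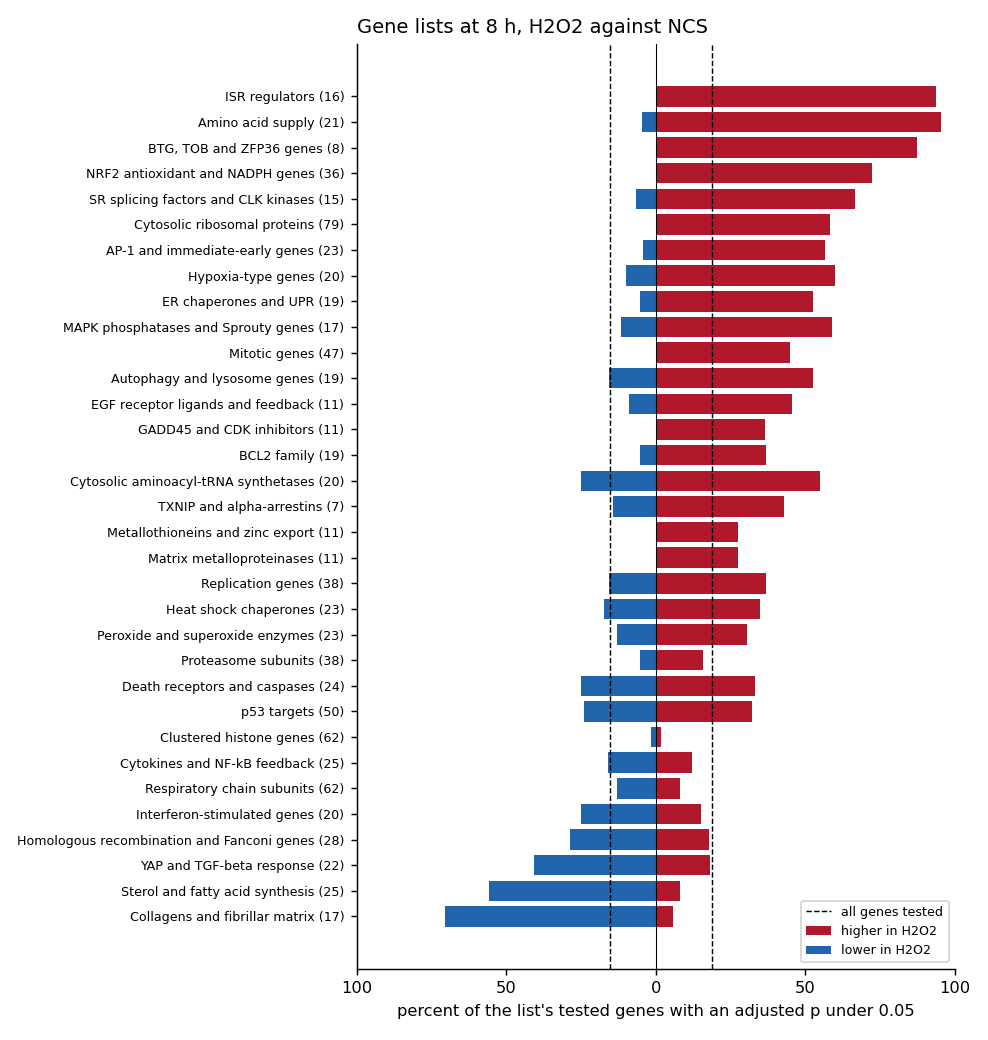
For each gene list (number of genes tested in brackets), the bars to the right show the percent of genes higher in H2O2 and the bars to the left the percent lower, both with an adjusted p under 0.05; dashed lines show 18.7% and 15.4%, the shares over all genes tested. Amino acid supply and ISR regulators reach over 90% to the right, and collagens and fibrillar matrix 70.6% to the left.

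The next question was how far p53 targets differed between the stresses at this hour. Of 50 targets, 16 were higher in H2O2 (32%, beside 18.7% of all genes) and 12 were lower (24%, beside 15.4%). The other 22 did not pass. A fit of only these 6 libraries gave 10 higher and 11 lower. Over the list both stresses stood 0.62 above untreated cells at the median. CDKN1A, the cell cycle inhibitor p21, had 15.87, 15.44 and 15.91 in H2O2 and 15.59 in each NCS library. The groups overlapped, and the difference was 0.15 (95% interval 0.00 to 0.31, adjusted p = 0.135 by limma). It rose to 0.30 and passed without replicate 2. RRM2B, the p53-dependent ribonucleotide reductase subunit, differed by -0.05 (-0.15 to 0.05), PIDD, a death domain protein, by -0.10 (-0.24 to 0.04), and the BH3-only gene BBC3 by 0.01 (-0.12 to 0.15), none of which passed.

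Other targets differed with one sign or the other. PMAIP1, the BH3-only protein NOXA, had 11.34, 11.00 and 11.09 in H2O2 and 10.56, 10.56 and 10.38 in NCS, a difference of 0.64 ± 0.07 (adjusted p = 7.03e-07). GADD45A, a stress sensor that also binds the kinase MTK1, differed by 0.44 and MDM2, the ubiquitin ligase of p53, by 0.26. SESN2, an mTORC1 inhibitor that ATF4 also regulates, differed by 0.97, GDF15, a stress cytokine, by 0.75, and KITLG by 0.58. TP53I3, a quinone oxidoreductase, had 10.67, 10.77 and 10.82 against 11.04, 11.13 and 11.09 (-0.33). The excision repair genes XPC and DDB2 were lower in H2O2 by -0.28 and -0.49, and the diacylglycerol kinase DGKA by -0.50. DDB2 and DGKA lay within 0.03 of untreated cells in H2O2, whereas in NCS they stood 0.51 and 0.49 above them. Replicate 2 was the lowest H2O2 library in 44 of the 50 genes, and without it 24 were higher and 11 lower.

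Genes of cell death were split between both signs. Of 24 death receptor and caspase genes, 8 were higher (33.3%, beside 18.7% of all genes) and 6 lower (25%, beside 15.4%). TNFRSF1A, the TNF receptor, differed by 0.37, CASP2 by 0.31 and TNFRSF10B, a TRAIL receptor, by 0.29, whereas BIRC3, an NF-kB-dependent inhibitor of apoptosis, differed by -0.64, CASP9 by -0.38 and CFLAR, the caspase-8 inhibitor, by -0.28. BIRC3 had 7.88, 7.91 and 7.83 against 8.66, 8.48 and 8.42. In the BCL2 family 7 of 19 were higher and 1 lower, with the largest differences in PMAIP1, BCL2L11 (0.39), BAK1 (0.29) and the guardian MCL1 (0.29).

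Immediate-early and feedback genes differed less than the ISR regulators. Of 23 AP-1 and immediate-early genes, 13 were higher and 1 lower. After FOSB, FOS differed by 0.83, KLF4 by 0.57, MAFF by 0.50 and NR4A1 by 0.39, and KLF2 was lower (-0.42). FOS in H2O2 (6.58, 6.89 and 6.70) was close to untreated cells, at a mean of 6.88, and NCS (5.98, 5.85 and 5.86) lay 0.99 below them. The feedback phosphatase and Sprouty list had 10 of 17 higher and 2 lower, led by DUSP5 (0.55), DUSP10 (0.34) and SPRED2 (0.34). The lower count was 0 without H2O2 replicate 1, H2O2 replicate 3 or NCS replicate 1, and a fit of only these 6 libraries gave 6 higher and 0 lower. Of 11 genes of the EGF receptor list, 5 were higher and 1 lower; the ligands EREG and AREG differed by 0.44 and 0.38, ERRFI1 by 0.29, and ERBB2 by -0.22. BTG1, a partner of the CCR4-NOT deadenylase, had 10.74, 10.57 and 10.68 against 9.93, 9.89 and 9.88 (0.76), and 7 of the 8 BTG, TOB and ZFP36 genes were higher.

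The count of mitotic genes moved with one library. With all libraries, 21 of 47 were higher in H2O2 and 0 lower, with a median of 0.17. PLK1, the mitotic kinase, had 10.20, 10.84 and 10.33 in H2O2 and 9.67, 9.66 and 9.73 in NCS, and KIF20A, a kinesin of cytokinesis, 9.97, 10.45 and 10.00 against 9.31, 9.40 and 9.45. Their differences were 0.77 and 0.76, or 0.58 and 0.60 without replicate 2. Replicate 2 was the highest H2O2 library in 47 of the 47 genes. Its median distance from NCS was 0.44, that of replicates 1 and 3 was 0.04 and 0.07, and without replicate 2 the counts were 15 higher and 7 lower with a median of 0.05. A fit of only these 6 libraries gave 7 higher and 0 lower. All 47 genes were below untreated cells in both stresses, with medians of -1.01 in H2O2 and -1.13 in NCS. Fewer cycling cells and less mRNA in each cell cannot be told apart in such bulk libraries.

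Replication genes were less affected by that library. Of 38, 14 were higher and 6 lower, and 13 and 8 without replicate 2. CCNE2, a cyclin of S-phase entry, had 7.89, 7.89 and 7.95 against 7.27, 7.53 and 7.29 (0.55), SLBP, which binds histone mRNA, differed by 0.38 and the helicase subunit MCM3 by 0.38, and LIG1 was lower (-0.27). All of the 3 higher genes were below untreated cells in both stresses, and further below in NCS. In the homologous recombination and Fanconi list, 5 of 28 were higher and 8 lower, among them BRIP1 (-0.47), BRCA1 (-0.24) and FANCD2 (-0.20). The higher share was close to the 18.7% of all genes. Without H2O2 replicate 2 the counts were 3 and 10, without NCS replicate 2 they were 4 and 5, and a fit of only these 6 libraries gave 2 and 2.

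B3GALT2, a galactosyltransferase, was the one lower gene past both limits. It had 7.19, 7.76 and 7.34 in H2O2 and 8.54, 8.51 and 8.46 in NCS, a difference of -1.07 ± 0.09 (adjusted p = 1.08e-07), and both stresses were below untreated cells, at 8.86. Without H2O2 replicate 1 it was -0.95. With a limit of 0.58, 41 genes were lower (0.208%) and 140 higher (0.711%). Of the 41, which were chosen for lower values in H2O2 than in NCS, 34 were below untreated cells in H2O2 (18.6% of all genes) and 23 above untreated cells in NCS (10.5%), with 16 in both sets. After B3GALT2 the next largest, named after their values were seen, were the zinc finger factor IKZF2 (-0.98), LOC100505678 (-0.96), LRRN3 (-0.95), the cation channel TRPC6 (-0.94), and then EDN1 and THBS1.

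Lower lists were those of the matrix and of lipid synthesis. Of 17 collagens and fibrillar matrix genes, 12 were lower and 1 higher, beside 15.4% lower over all genes, and the median was -0.34. COL12A1 had 12.89, 13.09 and 12.92 in H2O2 and 13.48, 13.47 and 13.51 in NCS (-0.52). FBN1, the fibrillin of elastic microfibrils, differed by -0.48, COL1A1 by -0.39, COL3A1, COL4A2 and COL1A2 each by -0.38. In each of these 6 genes NCS stayed within 0.09 of untreated cells. In the list of YAP and TGF-beta response genes 9 of 22 were lower and 4 higher, or 9 and 6 without H2O2 replicate 2. EDN1, the endothelin precursor, had 9.61, 9.83 and 9.67 against 10.58, 10.59 and 10.63 (-0.89), THBS1, an extracellular glycoprotein that activates TGF-beta, 15.53, 15.85 and 15.52 against 16.48, 16.50 and 16.54 (-0.87), ANKRD1 differed by -0.49 and CTGF by -0.46, whereas SMAD7 was higher (0.34).

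Of 25 sterol and fatty acid genes, 14 were lower and 2 higher (median -0.15). STARD4, a sterol carrier, differed by -0.51, FASN, the fatty acid synthase, by -0.42, HMGCS1 by -0.41, ACACA by -0.37 and IDI1 by -0.33. SREBF1, which encodes a factor that drives lipid synthesis, went the other way, with 11.37, 11.18 and 11.37 against 10.72, 10.64 and 10.70 (0.62).

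The remaining lists are given by their counts, to be read beside 18.7% higher and 15.4% lower over all genes. Higher in H2O2 were 46 of 79 cytosolic ribosomal protein genes (0 lower, median 0.10), 10 of 15 SR splicing factor and CLK genes (1 lower), led by SRSF7 (0.50), 12 of 20 hypoxia-type genes (2 lower), with NDRG1 (0.75) after VEGFA and PFKFB4 (-0.51) on the lower side, and 10 of 19 autophagy and lysosome genes (3 lower, or 2 without H2O2 replicate 2), led by MAP1LC3B (0.62) and SQSTM1 (0.60). The ribosomal protein differences were small, and 28 or 29 genes passed where any of H2O2 replicate 3, NCS replicate 1 or NCS replicate 2 was left out, 29 after quantile normalization, and 18 in a fit of only these 6 libraries. Of 11 GADD45 and CDK inhibitor genes, 4 were higher and 0 lower, and of 7 TXNIP and alpha-arrestin genes, 3 were higher, ARRDC3 (0.54) first, and TXNIP itself was lower (-0.31). Of 38 proteasome subunits 6 were higher (15.8%) and 2 lower. The counts were 5 and 8 of 62 respiratory chain subunits and 1 and 1 of 62 clustered histone genes. They were 3 and 0 of 11 metalloproteinase genes (27.3% higher) and 3 and 4 of 25 cytokine and NF-kB feedback genes. Of 20 interferon-stimulated genes 3 were higher (15%) and 5 lower (25%). Without H2O2 replicate 2 the counts were 6 and 4 for the cytokines, 5 and 3 for the interferon-stimulated genes, 7 and 5 for the respiratory chain, 8 and 3 for the proteasome and 1 and 2 for the histones. With library medians aligned 7 cytokines were higher. LIF (-0.36), IL8 (0.30) and IL32 (-0.26) had the largest differences among the cytokines, and IRF1 (0.50) and DDX58 (-0.40) among the interferon-stimulated genes.

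**Figure D4:**
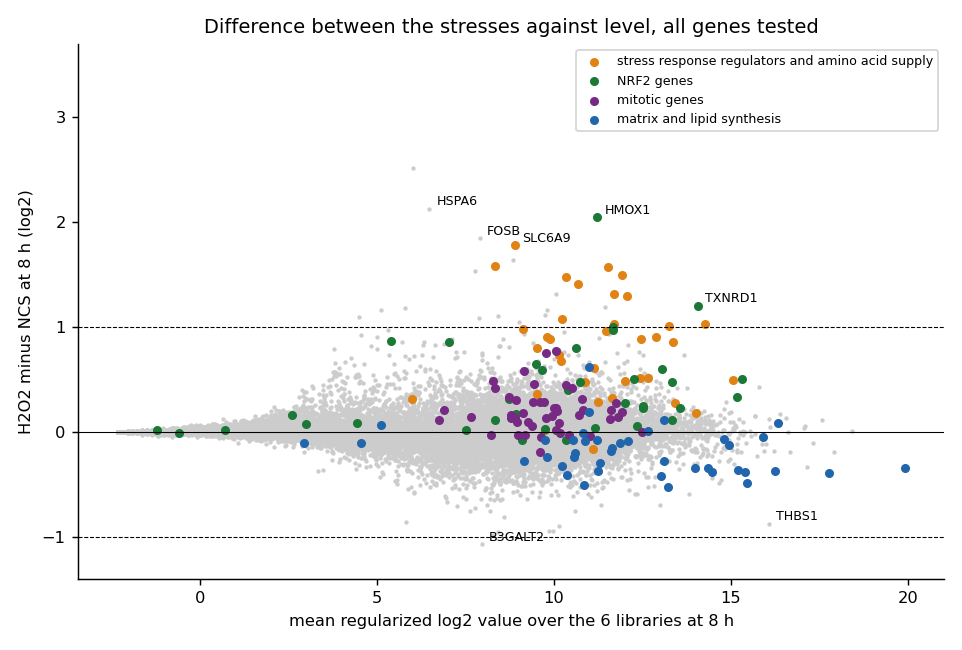
Each grey point is one of the 19694 genes tested, with its mean regularized log2 value over the 6 libraries on the x axis and H2O2 minus NCS (log2) on the y axis; dashed lines mark differences of 1 and -1, and colours mark 4 groups of lists. Orange and green points lie mostly above 0, and blue points lie mostly below it.

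The difference between the stresses was then set against those at 4 h and 24 h, with the change in the difference tested itself. From 4 h to 8 h the difference changed in 6448 genes (32.7%; 14.7% upwards and 18% downwards), by more than 1 in 44 of them (0.223%), 11 upwards (0.0559%) and 33 downwards (0.168%). Of the 31 genes higher at 8 h, the difference was larger at 8 h than at 4 h in 17, smaller in 7, and not told apart in 7. The 31 were chosen by their difference at 8 h, which favours a larger value at 8 h than at other hours. At 4 h 113 genes had been past both limits (0.574%), 15 of them among the 32 of 8 h.

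In most amino acid genes the difference grew. In the amino acid list the change was upwards in 15 of 21 genes and downwards in 2, and the median difference went from 0.45 at 4 h to 0.88, and to 0.36 at 24 h. SLC6A9 went from 0.71 to 1.78 (adjusted p of the change = 1.18e-06 by limma). In the NRF2 list it was upwards in 18 of 36 and downwards in 3. TXNRD1 went from 0.33 to 1.20 (adjusted p = 1.44e-07). MKNK2, a kinase of the cap-binding factor eIF4E, had a difference of -0.04 at 4 h and 1.19 at 8 h, and UNC5B, a netrin receptor, went from 0.22 to 1.54. Among p53 targets the change was upwards in 25 of 50 and downwards in 7: the median was -0.20 at 4 h and 0.04 at 8 h. MDM2 went from -0.77 to 0.26 (adjusted p = 4.2e-08), CDKN1A from -0.37 to 0.15 (7.9e-04) and GDF15 from -0.30 to 0.75 (4.67e-05), whereas GADD45A went from 0.87 to 0.44 (3.05e-04) and PMAIP1 from 0.85 to 0.64, a change that did not pass (0.102).

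Immediate-early genes were among those whose difference shrank, downwards in 16 of 23 and upwards in 1, with medians of 0.68 at 4 h and 0.14 at 8 h. FOSB went from 4.52 to 1.85 (adjusted p = 1.21e-09) and FOS from 1.68 to 0.83. In the ISR list the change was downwards in 6 genes and upwards in 5 of 16. ATF4, with 1.10 and 1.01, and HSPA6, with 2.14 and 2.13, had differences that could not be told apart. HMOX1 went from 2.56 to 2.05 (5.65e-05).

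From 8 h to 24 h the difference changed in 4216 genes (21.4%; 9.62% upwards and 11.8% downwards), by more than 1 in 8 of them (0.0406%), 7 of these downwards (0.0355%). Of the 31 genes, which were chosen by their difference at 8 h, 27 had a smaller difference at 24 h. In the other 4, UNC5B, SMOX, FAM129A and PHGDH, no change was detected. UNC5B was the only gene past both limits at 8 h and at 24 h (1.54 and 1.49). At 24 h 3 genes were past both limits (0.0152%). HMOX1 fell to 0.49 (adjusted p of the change = 2.86e-09), HSPA6 to 0.32 and ATF4 to 0.34. The amino acid difference shrank in 18 of 21 genes and grew in 0, that of the ISR regulators shrank in 12 of 16, and in the endoplasmic reticulum list it moved downwards in 15 of 19, with a median of -0.08 at 24 h.

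**Figure D5:**
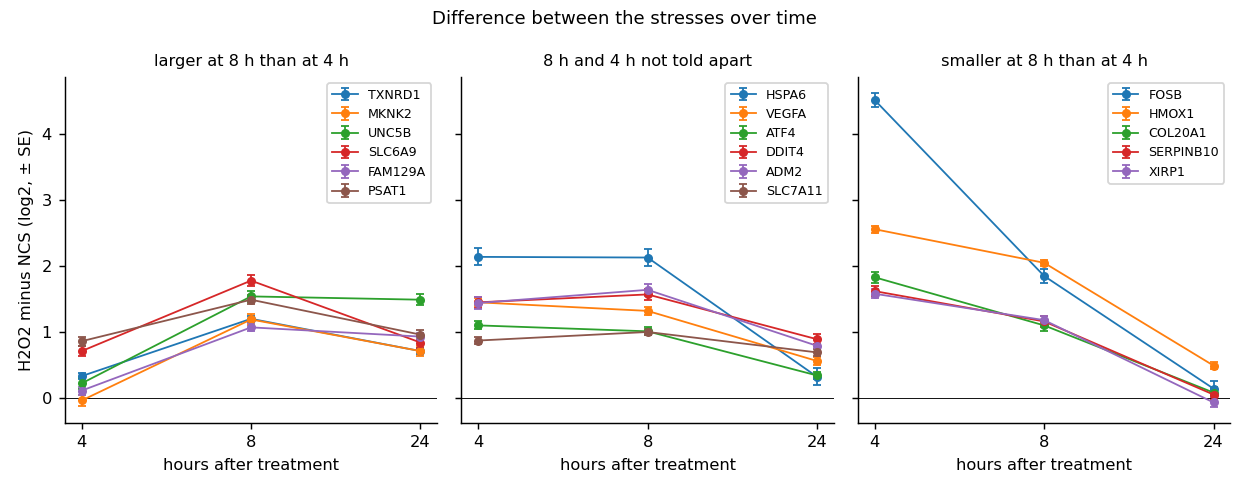
H2O2 minus NCS (log2, points with SE) at 4, 8 and 24 h for 17 of the genes past both limits at 8 h, in panels by the test of 8 h against 4 h; the hours are evenly spaced on the axis and not to scale. TXNRD1 rises from 0.33 to 1.20 in the left panel, HSPA6 stays at 2.14 and 2.13 in the middle panel, and FOSB falls from 4.52 to 1.85 in the right panel.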

How the data were processed

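Poly(A) RNA of hTERT-HPNE cells had been sequenced in pairs from stranded libraries. The authors deposited log2 values. Reads were aligned with HISAT2 and counted with HTSeq (hg19 is named among the builds in the submitters' processing notes), and DESeq2's regularized log transformation was applied over 21 libraries. Values are thereby scaled by size factors, and genes with few reads are shrunk most. Sequencing depth is unknown without counts and cannot enter the error.

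Genes at 0 in every library (3674) were left out. All 7 groups entered a single limma fit (version 3.58.1, R 4.3.3) with a mean-variance trend, with Benjamini-Hochberg adjustment over 19694 genes. An exact permutation test of 3 against 3 libraries cannot go below 0.1. The procedure was tested on simulated data.

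The members and lists were chosen with earlier results of these data known. Named are all genes past both limits but 1, which is counted but not reported here, up to 6 passing members with the largest differences of each list, 8 genes that the study names, and the 6 genes with the smallest adjusted p in each test of a change over time; others are given as not passing or as named after their values were seen. Files held older symbols (CARS, FAM129A, AGPAT9, PIDD), joined to RefSeq synonyms where needed. Of the 31 higher genes, 20 had a promoter window. Alternatives are given with the closing observations.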

Additional observations from a re-analysis of the deposited data

Results flagged for a closer look

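Each result here was singled out because the difference between H2O2 and NCS at 8 h was not the same as at another hour, by a test of the change in the difference (limma, adjusted over all genes). The change from 4 h to 8 h passed in 6448 genes and that from 8 h to 24 h in 4216 genes. The same libraries of 8 h enter both tests.

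Among genes that also differed at 8 h, those with the smallest adjusted p for the change from 4 h to 8 h were mostly higher in H2O2 at 4 h and closer to NCS at 8 h. LGR5, a Wnt co-receptor of stem cells that is scarcely expressed here, went from a difference of 1.24 to 0.11, a change of -1.13. CELSR2, an adhesion receptor of planar polarity, went from 2.37 to 0.58, a change of -1.79. LOC728437 changed by -0.78, from 0.94 to 0.16. ERRFI1, the feedback inhibitor of the EGF receptor, went from 1.36 to 0.29, a change of -1.07. NEDD4L, a ubiquitin ligase, turned from 0.61 to -0.21, a change of -0.81, and FMNL3, a formin, from -0.53 to 0.08, a change of 0.61.

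From 8 h to 24 h the smallest adjusted p belonged to HMOX1, whose difference changed by -1.55. CORIN, a membrane serine protease, changed by -0.52, from -0.09 to -0.61. DKK1, a secreted Wnt inhibitor, changed by 0.53, from -0.53 to 0.00, and AHNAK2 by 0.56, from -0.41 to 0.16. The KDEL receptors that return chaperones to the endoplasmic reticulum moved downwards, KDELR3 by -0.46 and KDELR2 by -0.42. No test for single outlying libraries was run on the groups of 3, and replicate 2 of H2O2 at 8 h is described by its values only.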

How the results depend on the processing

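With 12 or 13 alternatives each, the 6 total counts moved by more than 1.5 times in 2 cases. With a limit of 0.58 in place of 1, 181 genes were called at 8 h. With library medians aligned, 9077 genes changed between 8 h and 24 h. Aligning the medians shifted all differences at 8 h by 0.021 and gave 7204 higher and 2701 lower genes by the adjusted p (72.7% higher, beside 54.7%), while quantile normalization gave 3160 and 3428 (48%). With medians aligned, 4 acinar and endocrine and 3 blood and endothelial markers, none of them over 0.11 in the reported difference, also passed as higher. Leaving out 1 of the 6 libraries at a time gave 26 to 45 genes past both limits, 5599 to 7073 by the adjusted p, 5749 to 6780 for the change from 4 h, 3531 to 5115 for the change to 24 h, and 78 to 151 for H2O2 and 64 to 73 for NCS against untreated cells. The highest values for H2O2 came without its replicate 2. A fit of only the 6 libraries called 4692 genes and 7 of 47 mitotic genes as higher. No named gene changed sign past a threshold; APOL6, PHGDH, SLC7A5, ATF4, SLC7A11 and B3GALT2 fell under the limit of 1 in at least 1 alternative, and CDKN1A passed in 3. SOX9 no longer passed in 6 alternatives, IL32 in 3, and MDM2, TNFRSF10B, BRCA1 and FANCD2 in 1, the fit of only the 6 libraries. Of the counts per list and direction, 95 moved by more than 1.5 times and 769 did not. The replicate numbers were not taken as pairs, since same-numbered libraries at 8 h had correlations of 0.192, 0.0381 and 0.189 after removal of group means, although each H2O2 library correlated best with its own number. With the replicate block 32 genes were past both limits and 6777 passed by the adjusted p.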

Other observations

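Of the 140 genes that were higher in H2O2 with a difference over 0.58, 29 had a mean under 6 in NCS at 8 h, and in 22 of these the difference was smaller at 8 h than at 4 h by the test of the change. The 29 held genes past both limits, such as HSPA6, XIRP1, SERPINB10 and COL20A1, of which HSPA6 did not shrink from 4 h to 8 h. Others of the 29, named after their values were seen, were the muscle calcium channel RYR1 (1.58, 0.61 and 0.02 at the 3 hours in turn), the phosphodiesterase PDE4C (2.07, 0.64 and 0.40), the membrane metalloproteinase MMP25 (2.21, 0.86 and 0.18) and the amine oxidase AOC3 (2.14, 0.82 and 0.19). Reads of AOC3 may be split with its neighbour AOC2, which had 1.60, 0.70 and 0.41. In each of these genes NCS at 8 h was within 0.14 of untreated cells. Shrinkage is strongest at such levels, so that the differences understate those of the counts.

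KCNE4, a potassium channel subunit, and NHSL1, an actin regulator, both named after their values were seen, stood above NCS by 0.95 and 0.82, and in both NCS was below untreated cells, by -0.44 and -0.55. The 140 genes were chosen for higher values in H2O2 than in NCS. Of them, 18 were below untreated cells in NCS by the adjusted p, a share near the 13.3% of all genes. In H2O2, 135 were above untreated cells, beside 18.8% of all genes.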
